A study of Mus musculus with 8 samples.

Results

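The 10 genes described here encode the nuclear end of the Hippo pathway and some of its regulators and targets: the coactivators *Yap1* and *Wwtr1*, the DNA-binding partners *Tead1*, *Tead2*, *Tead3* and *Tead4*, the kinase *Lats2*, the regulators *Amotl2* and *Ajuba*, and the target gene *Ankrd1*. They were taken by symbol from a table of 53465 mouse genes, and all 10 passed the filter on low counts that left 14301 genes for testing. RNA was measured in 8 libraries of 2 pancreatic ductal adenocarcinoma (PDAC) lines, B73 and B87, grown from primary tumors of the KC-shSmad4 mouse model. All cells of this model carry *Ptf1a*-Cre, which recombines in the pancreas, a recombined Rosa26 allele with the reverse tetracycline transactivator rtTA3 and mKate2, and a GFP-linked short hairpin RNA against *Smad4* at the *Col1a1* locus. Doxycycline (Dox) switches the hairpin on, so DoxOn cells were Smad4 off, and DoxOff cells, kept without Dox for 5 days, were Smad4 on. Cells in each state then received for 24 h either 100 pM TGFβ1 or SB505124 at 2.5 µM, a small molecule that blocks the kinase activity of type I TGFβ receptors. This gave 4 groups of 2 libraries, 1 per line. Which of the study's *Smad4* hairpins each line carried is not given in the sources used here. No library of a control hairpin was analysed here, so loss of Dox and return of *Smad4* cannot be told apart. With no untreated cells, activation by TGFβ1 and inhibition by SB505124 cannot be told apart either.

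In the Hippo pathway, a kinase cascade that ends in LATS1 and LATS2 phosphorylates YAP (*Yap1*) and TAZ (*Wwtr1*) and holds them in the cytoplasm or sends them for degradation. When the kinases are quiet, YAP and TAZ enter the nucleus and bind TEAD proteins, which carry them to DNA. Because this control acts on the proteins, RNA levels of these components report transcript abundance and not the amount or activity of the protein. Several targets feed back on the pathway, among them *Lats2* and *Amotl2*, and TGFβ signaling meets it through SMAD complexes that can share enhancers with YAP, TAZ and TEAD.

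Library totals ran from 18389235 to 23440550 counts. Levels are given as CPM, counts divided by the library total after TMM scaling, and 3 counts, the smallest level taken as detectable, correspond to 0.125 to 0.162 CPM. *Smad4* itself lay between 33.7 and 35.5 CPM in the 4 Smad4-off libraries and between 97.4 and 117 CPM in the 4 Smad4-on libraries. Of the epithelial keratins, *Krt18* (592 to 2428 CPM), *Krt8* (236 to 2410) and *Krt19* (153 to 1575) were abundant. *Krt7* (12.6 to 649 CPM) and the epithelial *Cdh1* (11.5 to 469 CPM) varied widely. *Epcam*, another epithelial marker, was close to the floor (0.153 to 2.11 CPM). The summed level of the 6 epithelial markers was 3870 to 6183 CPM in B73 and 1170 to 2073 CPM in B87. Of the fibroblast markers, *Lum* had 0 counts and *Dcn* at most 3 in every library. The immune markers *Cd3e* and *Ptprc* had 0 and at most 3 counts, the endothelial marker *Pecam1* had at most 5, and the acinar *Cpa1*, *Amy2a5* and *Ptf1a* had 0. Other genes of these lists were detected, among them the immune *Cd68* (23 to 126 counts), the acinar *Cela1* (8 to 32), and the endothelial *Cdh5* (0 to 54) and *Kdr* (7 to 506, up to 25.2 CPM). The summed level of the 3 endothelial markers was higher with TGFβ1 in each line and *Smad4* state. In Smad4-off cells it was 2.15 (SB505124) and 7.24 CPM (TGFβ1) in B73 and 5.14 and 26.0 CPM in B87, and in Smad4-on cells 0.648 and 3.32 CPM in B73 and 2.66 and 4.64 CPM in B87. The summed level of the 5 fibroblast markers did move with treatment in B87. With Smad4 off it was 54.4 CPM in the SB505124 library and 191 CPM in the TGFβ1 library, and with Smad4 on 141 and 655 CPM, against 3.89 to 8.32 CPM in B73. *Col1a1*, the locus that holds the hairpin, gave 25.9, 161, 119 and 627 CPM of these 4 sums. The part of these markers in the results below was not tested.

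The letters that TEAD proteins read, GGAATG on either strand, were searched in the 250 bases upstream of RefSeq start sites (GRCm38.p6), which were found for 8 of the 10 genes. Matches occurred for 6 of these 8 genes, and for 3880 of 27025 genes with a RefSeq start (14.4%). *Ankrd1*, *Ajuba* and *Tead3* had more than 1 match, and *Tead2* and *Lats2* had none. The AP-1 letters TGANTCA matched in 0 of the 8 genes and in 7.82% of all genes, and the SMAD letters CAGAC matched in 3 of the 8 (*Yap1*, *Ajuba* and *Ankrd1*) and in 45.8% of all genes, again on both strands. A match is a description of the letters and not a measured binding site. The windows of 30 bases around matches are shown because they cover the strongest responder, *Ankrd1*, 4 milder ones and *Yap1*, which hardly varied. The match is in capitals, and each sequence is written 5′ to 3′ along the gene's own strand.
Ankrd1 (chr19:36120037-36120066, minus strand): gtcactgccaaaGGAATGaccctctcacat
Ankrd1 (chr19:36119950-36119979, minus strand): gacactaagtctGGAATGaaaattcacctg
Amotl2 (chr9:102717727-102717756, plus strand): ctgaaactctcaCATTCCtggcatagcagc
Ajuba (chr14:54577830-54577859, minus strand): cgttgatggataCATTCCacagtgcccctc
Ajuba (chr14:54577808-54577837, minus strand): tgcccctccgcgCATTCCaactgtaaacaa
Wwtr1 (chr3:57576029-57576058, minus strand): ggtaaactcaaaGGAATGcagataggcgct
Tead3 (chr17:28350970-28350999, minus strand): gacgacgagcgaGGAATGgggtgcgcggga
Yap1 (chr9:8004720-8004749, minus strand): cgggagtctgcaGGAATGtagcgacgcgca

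The *Ankrd1* matches begin 210 and 123 bases upstream of its start, and the second shares 1 base with a SMAD match on the other strand. The *Amotl2* match begins 65 bases upstream. The *Amotl2* and *Ankrd1* windows lie in exons of other transcripts of these genes in GENCODE M21. The *Ajuba*, *Wwtr1*, *Yap1* and *Tead3* windows shown lie outside the annotated exons of their genes.

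Per base of transcript, *Ankrd1* was by far the most abundant of the 10, with a mean of 270 RPKM over the 8 libraries and a range of 70.1 to 782 RPKM. *Ajuba* (54.8 RPKM) and *Amotl2* (46.7 RPKM) followed, and their ranges overlapped (37.9 to 73.6 and 26.6 to 77.1 RPKM). *Tead1* (26.3 RPKM) and *Wwtr1* (24.3 RPKM) came next and overlapped too. *Yap1* stood at 18.2 RPKM with the narrowest range of all, 17.0 to 19.2 RPKM. *Tead2* (12.8 RPKM) and *Tead4* (12.6 RPKM) were not separable, and *Lats2* (6.35 RPKM) and *Tead3* (5.43 RPKM) were lowest, also with overlapping ranges. RPKM here are CPM per kilobase of the transcript length in the deposited table, which for *Tead3* and *Ankrd1* is 0.655 and 0.612 of the exon length in GENCODE M21. For *Lats2*, 42.4% of exon bases also belong to a second, same-strand gene model, so reads in the shared stretch may be missing from its level. A second entry with the symbol *Lats2* had 0 counts in every library, and whether it is this overlapping model was not checked.

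**Figure D1:**
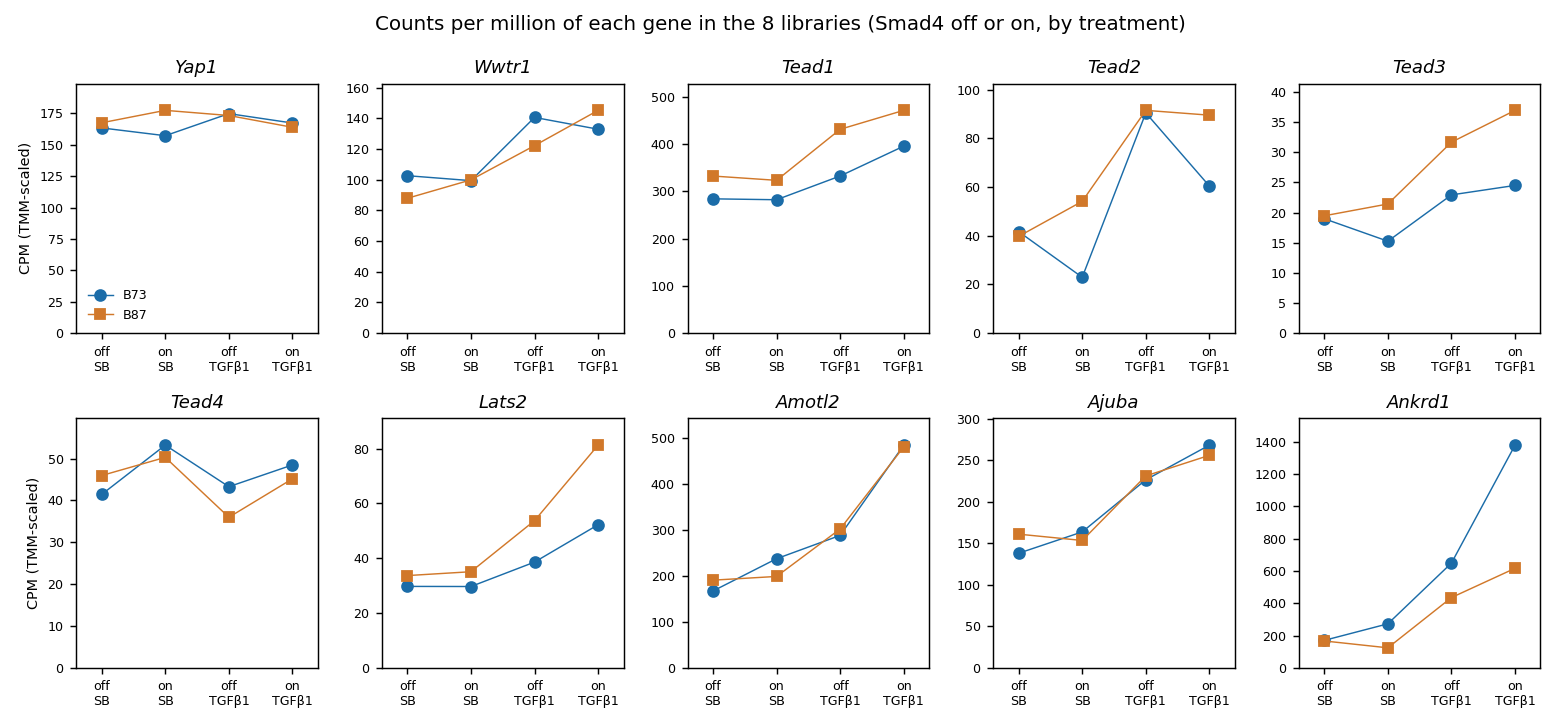
Each panel plots the TMM-scaled CPM of 1 gene (y axis, from 0) in the 8 libraries, by Smad4 state and treatment on the x axis. Circles are B73 and squares B87, and lines join libraries of a line. *Yap1* is flat, *Tead4* is not raised by TGFβ1, and the other 8 genes are higher in every TGFβ1 library than in any SB505124 library.

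In Smad4-on cells, TGFβ1 raised 8 of the 10 genes relative to SB505124 and lowered none (edgeR adjusted p under 0.05). The share of all tested genes that rose by this test was 15.6%, and 17.6% fell. *Ankrd1* rose 5.03-fold, *Amotl2* 2.21-fold and *Lats2* 2.03-fold, and these 3 also exceeded the study's 2-fold limit, as did 5.62% of all genes in the upward direction. *Tead2*, *Tead3*, *Ajuba*, *Tead1* and *Wwtr1* rose by 1.40-fold to 1.99-fold, while *Yap1* and *Tead4* did not pass. Without the line in the model, 5 of the 10 passed in edgeR and 6 in DESeq2. Values given without the line are from edgeR unless DESeq2 is named. The median change of the 10 genes was 0.73 on the log2 scale, against -0.02 over all tested genes. In Smad4-off cells, 6 of the 10 rose and none fell, against 6.96% of all genes that rose. *Ankrd1* (3.08-fold) and *Tead2* (2.23-fold) exceeded 2-fold, as did 3.11% of all genes upward, and the median of the 10 was 0.50, against -0.02 over all genes. In edgeR without the line, 2 of the 10 passed in Smad4-off cells, *Amotl2* (adjusted p = 0.0466) and *Ajuba* (adjusted p = 0.0469). DESeq2 without the line passed 5, these 2 and *Wwtr1* (adjusted p = 0.0113), *Tead2* (0.0293) and *Ankrd1* (0.00248). For 8 of the 10 genes, the lowest TGFβ1 library lay above the highest SB505124 library, which held for 12.7% of all tested genes.

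**Figure D2:**
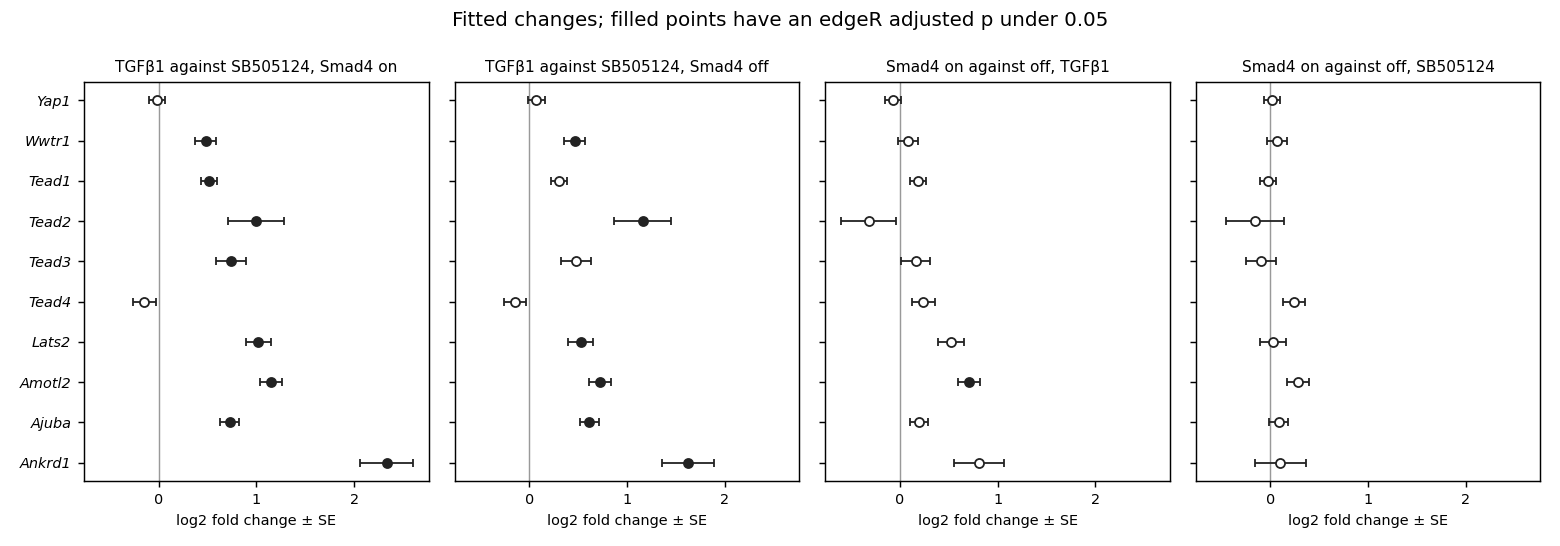
Fitted log2 fold changes (x axis) of the 10 genes (y axis) in 4 comparisons, with standard errors as bars. Filled points have an edgeR adjusted p under 0.05. Under TGFβ1 against SB505124 there are 8 filled points with Smad4 on and 6 with Smad4 off, all to the right of 0, and *Amotl2* is the single filled point for Smad4 on against off.

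*Yap1*, the YAP coactivator (chr9:7931999-8004596), was the steadiest of the set. Under SB505124 it measured 163 CPM in B73 and 167.5 CPM in B87 with Smad4 off, and 157 and 177 CPM with Smad4 on. Under TGFβ1 it measured 175 and 173 CPM with Smad4 off, and 167 and 164 CPM with Smad4 on. The highest library was 1.13 times the lowest. The Smad4-on SB505124 libraries spanned all the other groups, and the Smad4-off TGFβ1 libraries lay slightly above the Smad4-off SB505124 and Smad4-on TGFβ1 libraries. The fitted TGFβ1 effect in Smad4-on cells was -0.01 on the log2 scale, with a range of 2 standard errors on either side of -0.18 to 0.15 (edgeR adjusted p = 0.92), and in Smad4-off cells it was 0.07 (adjusted p = 0.61).

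*Wwtr1*, which encodes the YAP paralog TAZ (chr3:57455649-57575910), was higher with TGFβ1. It measured 103 (B73) and 87.9 CPM (B87) with Smad4 off and SB505124, and 99.4 and 99.9 CPM with Smad4 on and SB505124. With TGFβ1 it measured 141 and 122 CPM with Smad4 off, and 133 and 145 CPM with Smad4 on. All 4 TGFβ1 libraries lay above all 4 SB505124 libraries, and the *Smad4* state did not order them. The TGFβ1 effect was 0.48 ± 0.11 (log2 fold change ± SE) in Smad4-on cells (adjusted p = 0.0135) and 0.47 ± 0.11 in Smad4-off cells (adjusted p = 0.0318). The first did not pass without either Smad4-on SB505124 library or without the Smad4-on TGFβ1 library of B87 (up to 0.0909 for *Wwtr1*). Of 8 fits that each left out a library, the second passed in the 2 without a Smad4-on TGFβ1 library and reached 0.232 in the others.

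The balance of the coactivator pair can be read as a ratio of RPKM, values per base. By this measure *Wwtr1* was 1.02 to 1.22 times *Yap1* in the SB505124 libraries and 1.37 to 1.72 times in the TGFβ1 libraries. The ratio was higher with TGFβ1 in all 4 pairs of libraries of the same line and *Smad4* state, by 0.408 on average. An exact two-sided sign-flip permutation test over the 4 pairs gave p = 0.125, the smallest it can give. The 4 pairs come from 2 lines, so they are not 4 independent replicates.

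*Tead1*, the most abundant TEAD factor per base in every library (chr7:112679318-112906807), measured 284 and 332.5 CPM (B73 and B87) with Smad4 off and 282 and 323 CPM with Smad4 on under SB505124. Under TGFβ1 it measured 332.6 and 431.5 CPM with Smad4 off and 396 and 472 CPM with Smad4 on. B87 was above B73 in every condition, so the groups barely separated across lines, and the rise was plain within each line. In Smad4-on cells the TGFβ1 effect was 0.52 ± 0.08 (adjusted p = 0.00368) and passed in all 8 fits that left out a library, though not without the line in the model (adjusted p = 0.095). In Smad4-off cells it was 0.30 ± 0.08 and just missed (adjusted p = 0.0542). DESeq2 without the line passed *Tead1* with Smad4 on (adjusted p = 0.0201) and not with Smad4 off (0.352).

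*Tead2* (chr7:45215753-45233644) had the widest response among the TEAD genes. With Smad4 off, SB505124 libraries measured 41.7 (B73) and 39.7 CPM (B87), and TGFβ1 libraries 90.5 and 91.5 CPM. With Smad4 on, the SB505124 libraries measured 22.9 and 54.1 CPM, and the TGFβ1 libraries 60.4 and 89.5 CPM. The lines were alike with Smad4 off and apart with Smad4 on, B73 being the lower. The TGFβ1 effect was 1.16 ± 0.29 in Smad4-off cells (adjusted p = 0.0424) and 1.00 ± 0.29 in Smad4-on cells (1.99-fold, adjusted p = 0.0371). The first passed in the 2 fits without a Smad4-on SB505124 library and not in the other 6 that left out a library (*Tead2* up to 0.252). The second was lost without the Smad4-on SB505124 library of B73 or either Smad4-on TGFβ1 library (up to 0.16). Without the line in the model, neither passed in edgeR (adjusted p = 0.215 and 0.158). In DESeq2 without the line, the first passed (adjusted p = 0.0293) and the second just missed (0.0506).

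*Tead3* (chr17:28331671-28350805), the lowest of the family, measured 19.0 and 19.5 CPM (B73 and B87) with Smad4 off and 15.2 and 21.4 CPM with Smad4 on under SB505124. Under TGFβ1 it measured 22.9 and 31.7 CPM with Smad4 off and 24.5 and 37.0 CPM with Smad4 on. Both TGFβ1 libraries of B87 stood well above the rest. It rose by 0.74 ± 0.15 with TGFβ1 in Smad4-on cells (adjusted p = 0.0109). This was lost without either Smad4-on SB505124 library, without the Smad4-on TGFβ1 library of B87 (up to 0.0757) or without the line in the model (0.126). The value in Smad4-off cells was 0.48 ± 0.15 (adjusted p = 0.0847).

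*Tead4* (chr6:128224288-128300823) did not follow the other TEAD genes. It measured 41.4 and 46.0 CPM (B73 and B87) with Smad4 off and 53.2 and 50.3 CPM with Smad4 on under SB505124, then 43.3 and 36.0 CPM with Smad4 off and 48.5 and 45.2 CPM with Smad4 on under TGFβ1. The Smad4-on library exceeded the Smad4-off library of the same line and treatment in all 4 pairs, but neither effect passed (0.24 ± 0.12 under TGFβ1, adjusted p = 0.262, and 0.24 ± 0.12 under SB505124, adjusted p = 0.453). The fitted TGFβ1 effects were -0.15 ± 0.12 in both states, with edgeR adjusted p = 0.376 (Smad4 on) and 0.459 (Smad4 off).

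The 4 TEAD genes together measured 43.8 to 54.0 RPKM under SB505124 and 60.7 to 74.4 RPKM under TGFβ1. *Tead1* made up 40.4% to 49.0% of this sum in every library. The share of *Tead2* was 10.9% to 20.9% under SB505124 and 20.7% to 31.2% under TGFβ1, and the share of *Tead4* went the other way, from 25.3% to 33.7% down to 14.7% to 22.2%. In all 4 pairs of libraries the *Tead2* share was higher and the *Tead4* share lower with TGFβ1, by means of 9.37 and -9.24 percentage points. The sum itself was higher in all 4 pairs, with a mean of 66.0 against 48.3 RPKM, so a share can be lower without a fall in level. The level of *Tead4* did not pass a test in either *Smad4* state, which does not exclude a fall. Its TGFβ1 effect ran, within 2 standard errors on either side, from -0.37 to 0.09 on the log2 scale with Smad4 on. With Smad4 off it ran from -0.38 to 0.09. The exact two-sided sign-flip permutation test gave p = 0.125 for the sum and the *Tead2* and *Tead4* shares, the smallest possible with 4 pairs. The same exact two-sided sign-flip permutation test gave p = 0.75 for *Tead1*, whose share rose in 2 pairs and fell in 2. Here too the 4 pairs come from 2 lines and are not independent replicates.

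**Figure D3:**
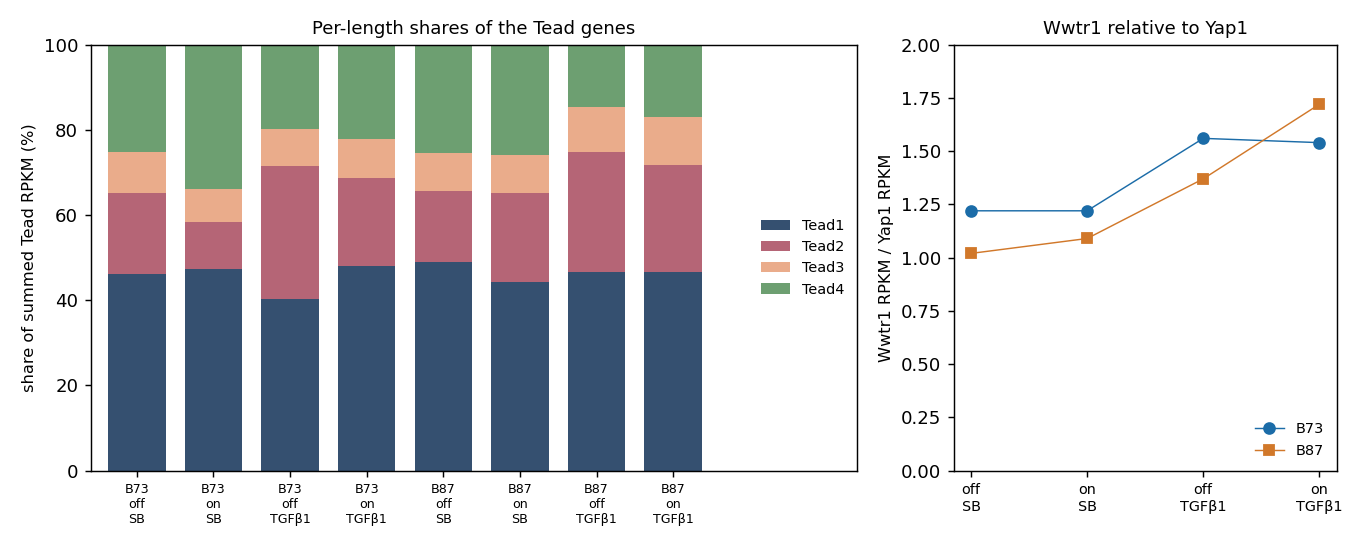
Left, share of each TEAD gene in the summed RPKM of the 4 (y axis, percent) for the 8 libraries on the x axis. Right, *Wwtr1* RPKM divided by *Yap1* RPKM, with circles for B73 and squares for B87. The *Tead2* band is wider and the *Tead4* band narrower in each TGFβ1 library than in its SB505124 partner, and the ratio runs from 1.02 to 1.22 under SB505124 and from 1.37 to 1.72 under TGFβ1.

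*Lats2*, the kinase that phosphorylates YAP and TAZ (chr14:57689662-57758388), measured 29.7 and 33.7 CPM (B73 and B87) with Smad4 off and 29.7 and 35.1 CPM with Smad4 on under SB505124. Under TGFβ1 it measured 38.6 and 53.7 CPM with Smad4 off and 52.2 and 81.3 CPM with Smad4 on. The SB505124 libraries were alike whatever the *Smad4* state, and under TGFβ1 the Smad4-on library was the higher in each line. TGFβ1 raised it by 1.02 ± 0.13 with Smad4 on (adjusted p = 0.00167, and past the threshold in all 8 fits that left out a library). With Smad4 off the rise was 0.53 ± 0.13 (adjusted p = 0.0427), which passed in the 2 such fits without a Smad4-on TGFβ1 library and not in the other 6 (*Lats2* up to 0.267) or without the line (0.35).

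*Amotl2*, an angiomotin family scaffold that binds YAP and activates LATS kinases (chr9:102716672-102733418), showed the clearest order of the groups. It measured 167 and 191 CPM (B73 and B87) with Smad4 off and 237.5 and 199 CPM with Smad4 on under SB505124. Under TGFβ1 it measured 288 and 302 CPM with Smad4 off and 485 and 481 CPM with Smad4 on. The TGFβ1 groups did not overlap with each other or with either SB505124 group, and the lines nearly coincided in the highest group. TGFβ1 raised *Amotl2* by 1.15 ± 0.11 in Smad4-on cells (adjusted p = 0.000618) and by 0.72 ± 0.11 in Smad4-off cells (adjusted p = 0.00927). The first passed in all 8 fits that left out a library, and the second in 6, the exceptions being the 2 fits without a Smad4-off TGFβ1 library (up to 0.0923).

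*Ajuba*, a LIM-domain protein that binds and restrains LATS kinases (chr14:54567472-54577558), measured 138 and 161 CPM (B73 and B87) with Smad4 off and 164 and 153 CPM with Smad4 on under SB505124. Under TGFβ1 it measured 226.5 and 231 CPM with Smad4 off and 268 and 256 CPM with Smad4 on. The treatments were well apart and the lines close. It rose with TGFβ1 by 0.73 ± 0.10 in Smad4-on cells (adjusted p = 0.002) and by 0.61 ± 0.10 in Smad4-off cells (adjusted p = 0.00943). The second did not pass without either Smad4-off TGFβ1 library (up to 0.0871).

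*Ankrd1*, an ankyrin repeat protein and a widely used readout of YAP and TAZ activity (chr19:36111965-36119844), had the widest range of the 10 genes. It measured 170 and 166 CPM (B73 and B87) with Smad4 off and 272.5 and 124 CPM with Smad4 on under SB505124, then 649 and 435 CPM with Smad4 off and 1380 and 617 CPM with Smad4 on under TGFβ1. Every TGFβ1 library lay above every SB505124 library, and B73 exceeded B87 in every condition, least with Smad4 off under SB505124. TGFβ1 raised it by 2.33 ± 0.27 in Smad4-on cells (adjusted p = 0.00111) and by 1.62 ± 0.27 in Smad4-off cells (adjusted p = 0.0106). Within lines the changes were 2.34 (B73) and 2.32 (B87) with Smad4 on, and 1.93 and 1.39 with Smad4 off. The *Ankrd1* call in Smad4-off cells was lost without the Smad4-off TGFβ1 library of B87 and, in edgeR, without the line in the model (adjusted p = 0.171). DESeq2 without the line passed it (adjusted p = 0.00248).

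Restoring *Smad4* under TGFβ1 raised 1 of the 10 genes, *Amotl2*, by 0.71 ± 0.11 (1.64-fold, edgeR adjusted p = 0.0161, higher in both lines), where 3.52% of all tested genes rose and 3.28% fell. None of the 10 exceeded 2-fold with an adjusted p under 0.05, as 1.31% of all genes did upward, and 3 of the 10 had an unadjusted p under 0.05 (*Amotl2*, *Lats2* and *Ankrd1*). DESeq2 with the line passed 2, *Amotl2* and *Lats2*, and DESeq2 without the line passed 1, *Amotl2* (adjusted p = 9.36e-06). In edgeR the *Amotl2* result did not pass without any 1 of the 4 TGFβ1 libraries or without the line in the model (adjusted p = 0.0977). *Lats2* was 0.52 ± 0.13 higher (adjusted p = 0.0596, DESeq2 with the line 0.019), and *Ankrd1* was 0.81 ± 0.26 higher (adjusted p = 0.12). The *Ankrd1* value was 1.09 in B73 and 0.50 in B87.

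Under SB505124, restoring *Smad4* moved none of the 10 past the threshold in edgeR or in DESeq2 with the line, with 0.972% of all tested genes higher, 0.622% lower and 0.636% more than 2-fold higher. The smallest unadjusted p was 0.0406, for *Amotl2* (0.29 ± 0.11, adjusted p = 0.362), the single gene of the 10 with an unadjusted p under 0.05. *Tead2* and *Ankrd1* moved in opposite directions in the lines. *Tead2* differed by -0.86 in B73 and 0.45 in B87 on the log2 scale, and *Ankrd1* by 0.68 in B73 and -0.43 in B87.

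Whether the TGFβ1 effect differed with the *Smad4* state was tested directly as an interaction. None of the 10 passed in edgeR or in DESeq2 with the line, and 0.196% of all tested genes passed in edgeR. *Lats2* (0.50 ± 0.18, unadjusted p = 0.0312, adjusted p = 0.407) and *Amotl2* (0.43 ± 0.16, unadjusted p = 0.033, adjusted p = 0.412) had the smallest p values, each with a larger TGFβ1 effect in Smad4-on cells in both lines. *Ankrd1* had the largest estimate (0.71 ± 0.37, adjusted p = 0.569). The TGFβ1 response was thus not shown to differ between Smad4-on and Smad4-off cells for any of the 10.

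The lines differed in 4 of the 10 genes. B87 was higher than B73 for *Tead3* (0.40 ± 0.11, adjusted p = 0.0433), *Lats2* (0.39 ± 0.09, adjusted p = 0.0284) and *Tead1* (0.26 ± 0.06, adjusted p = 0.0211), where 8.92% of all tested genes were higher. B87 was lower for *Ankrd1* (-0.73 ± 0.19, adjusted p = 0.0359), where 9.68% of all genes were lower. None of the 4 exceeded 2-fold, as 8.37% of all genes did in either direction. *Tead1* did not pass without any 1 of the TGFβ1 libraries (up to 0.115). The other 3 passed in the 2 fits without a Smad4-off SB505124 library and not in the other 6, with adjusted p up to 0.148 for *Tead3*, 0.117 for *Lats2* and 0.129 for *Ankrd1*. The lines did not differ detectably in their TGFβ1 effect (0 of the 10 in edgeR and in DESeq2 with the line, 1 at an unadjusted p under 0.05, and 0% of all tested genes in edgeR).

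For the *Smad4* effect, 0 of the 10 differed between the lines in edgeR, 3 had an unadjusted p under 0.05, and 0.406% of all tested genes passed. For *Ankrd1* the difference (B87 minus B73) was -0.84 ± 0.19 with an adjusted p of 0.16 in edgeR and 0.00484 in DESeq2 with the line. For *Tead2* it was 0.91 ± 0.22 (adjusted p = 0.184 in edgeR and 0.0637 in DESeq2 with the line). Without either Smad4-off TGFβ1 library the *Ankrd1* difference passed in edgeR (0.0391 for the B73 library and 0.0114 for the B87 library), and without either Smad4-on TGFβ1 library the *Tead2* difference passed (0.0148 for the B73 library and 0.016 for the B87 library).

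The other regulators of the pathway were a list of 28 genes, of which 25 were tested. With TGFβ1 in Smad4-on cells, 11 rose (15.6% of all tested genes did), 3 fell (17.6% of all did) and the median was 0.30. *Vgll3*, a TEAD cofactor of the vestigial-like family, rose 4.63-fold (2.21 ± 0.18, adjusted p = 0.000282), and *Frmd6*, a FERM-domain protein upstream of the kinases, rose 2.17-fold (1.11 ± 0.11, adjusted p = 0.000574). The kinase genes *Lats1* (0.41 ± 0.08, adjusted p = 0.0108) and *Stk4* (0.53 ± 0.08, adjusted p = 0.00328) rose less, and the 3 that fell were the scaffolds *Sav1* (-0.59 ± 0.09, adjusted p = 0.00363) and *Wwc1* (-0.60 ± 0.14, adjusted p = 0.0185) and the kinase *Taok3* (-0.28 ± 0.09, adjusted p = 0.0498). Without the line in the model, *Frmd6* (adjusted p = 0.127), *Stk4* (0.107), *Wwc1* (0.117) and *Taok3* (0.513) did not pass in edgeR. DESeq2 without the line passed *Frmd6* (adjusted p = 0.0218), *Stk4* (0.0454) and *Wwc1* (0.0443) and not *Taok3* (0.589). *Taok3* also passed in none of the 8 fits that left out a library. In Smad4-off cells 6 of the 25 rose (6.96% of all tested genes did), none fell, and the median was 0.20.

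*Vgll3* was the one tested regulator that passed for *Smad4* in both treatments. It measured 3.79 and 4.44 CPM (B73 and B87) with Smad4 off and 14.4 and 11.9 CPM with Smad4 on under SB505124, and 10.8 and 15.0 CPM with Smad4 off and 56.7 and 65.6 CPM with Smad4 on under TGFβ1. The Smad4-off SB505124 libraries were lowest and the Smad4-on TGFβ1 libraries highest in both lines, and the 2 groups between them overlapped. The *Smad4* effect was 2.26 ± 0.18 under TGFβ1 (edgeR adjusted p = 0.00154, 0.0325 without the line in the model). DESeq2 without the line passed this effect and the one under SB505124 (adjusted p = 3.66e-16 and 5.37e-07). Under SB505124 the edgeR effect was 1.68 ± 0.20 (adjusted p = 0.0134), which did not pass in edgeR without the line (0.138). The *Vgll3* effect under SB505124 was also lost without either Smad4-off SB505124 library or the Smad4-on SB505124 library of B73 (0.0502 to 0.1). *Frmd6* (0.61 ± 0.11, adjusted p = 0.0217) and *Rassf1* (0.63 ± 0.12, adjusted p = 0.0284), the other 2 regulators that passed under TGFβ1, changed by less than 2-fold. Of all tested genes, 3.52% rose in this comparison. Neither regulator passed in edgeR without the line (0.595 and 0.146). DESeq2 without the line passed *Rassf1* (adjusted p = 0.00867) and not *Frmd6* (0.517).

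Of 19 genes that YAP, TAZ and TEAD are known to drive, 9 rose and 1 fell with TGFβ1 in Smad4-on cells, 7 of the 9 more than 2-fold, with a median of 0.99. Among all tested genes, 15.6% rose and 17.6% fell, and 5.62% rose more than 2-fold. The target that fell was *Foxf2* (1.99-fold, adjusted p = 0.0177). Without the line its adjusted p was 0.102 in edgeR and 0.0256 in DESeq2. In Smad4-off cells 8 targets rose and none fell, 5 of them more than 2-fold, with a median of 0.64. *Ptpn14*, which is in both the regulator and the target list, is counted as a riser in both. Among all tested genes, 6.96% rose there and 3.11% rose more than 2-fold. The matricellular genes *Ctgf* and *Cyr61* rose 16.1-fold and 6.40-fold with Smad4 on, and 4.77-fold and 5.64-fold with Smad4 off, and *Gadd45a*, a stress response gene, rose 8.68-fold and 3.92-fold. Without the line, the *Ctgf* rise with Smad4 off had an adjusted p of 0.0671 in edgeR and 3.82e-08 in DESeq2. *Ctgf* ran from 85.5 CPM to 2501 CPM and *Cyr61* from 96.1 CPM to 1570 CPM over the 8 libraries. Many of these genes, *Ctgf* among them, are also direct targets of SMAD complexes, so the list is not specific to YAP and TAZ.

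Restoring *Smad4* under TGFβ1 raised 5 of the 19 targets and lowered 1, with a median of 0.27. Among all tested genes, 3.52% rose and 3.28% fell. *Cyr61*, *Nuak2*, *Ctgf* and *Dock5* rose 1.53-fold to 1.81-fold, and *Asap1* fell (-0.55 ± 0.11, adjusted p = 0.0338). None of these passed in edgeR without the line (0.149 to 0.479). DESeq2 without the line passed *Nuak2* (adjusted p = 0.0217) and *Asap1* (0.00151) and not the others. *F3*, which encodes tissue factor, rose 5.93-fold (2.57 ± 0.22, adjusted p = 0.00206). Without the line in the model it had an adjusted p of 0.0762 in edgeR and 1.44e-11 in DESeq2. It measured 62.3 and 52.9 CPM (B73 and B87) with Smad4 off and 477 and 237 CPM with Smad4 on under TGFβ1, and 37.1, 36.2, 86.5 and 54.6 CPM in the SB505124 libraries (Smad4 off in B73 and B87, then Smad4 on). Both Smad4-on TGFβ1 libraries thus stood far above the other 6. Under SB505124, 1 target rose with *Smad4*, the forkhead factor gene *Foxf2* (1.47 ± 0.24, adjusted p = 0.0389), and 2 fell, *Ctgf* (-0.98 ± 0.14, adjusted p = 0.0242) and *Gadd45a* (-0.90 ± 0.15, adjusted p = 0.0418). Among all tested genes, 0.972% rose and 0.622% fell. In DESeq2 without the line, *Foxf2* (adjusted p = 0.00674) and *Gadd45a* (0.00918) passed and *Ctgf* (0.443) did not. In edgeR, none of these 3 targets passed without the line (0.54 for *Foxf2*, 0.941 for *Ctgf* and 0.251 for *Gadd45a*). *Foxf2* was also lost without any 1 of the SB505124 libraries (0.0607 to 0.25), leaving out 1 library took *Ctgf* up to 0.136, and *Gadd45a* passed in none of the 8 fits that left out a library (0.0522 to 0.209).

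**Figure D4:**
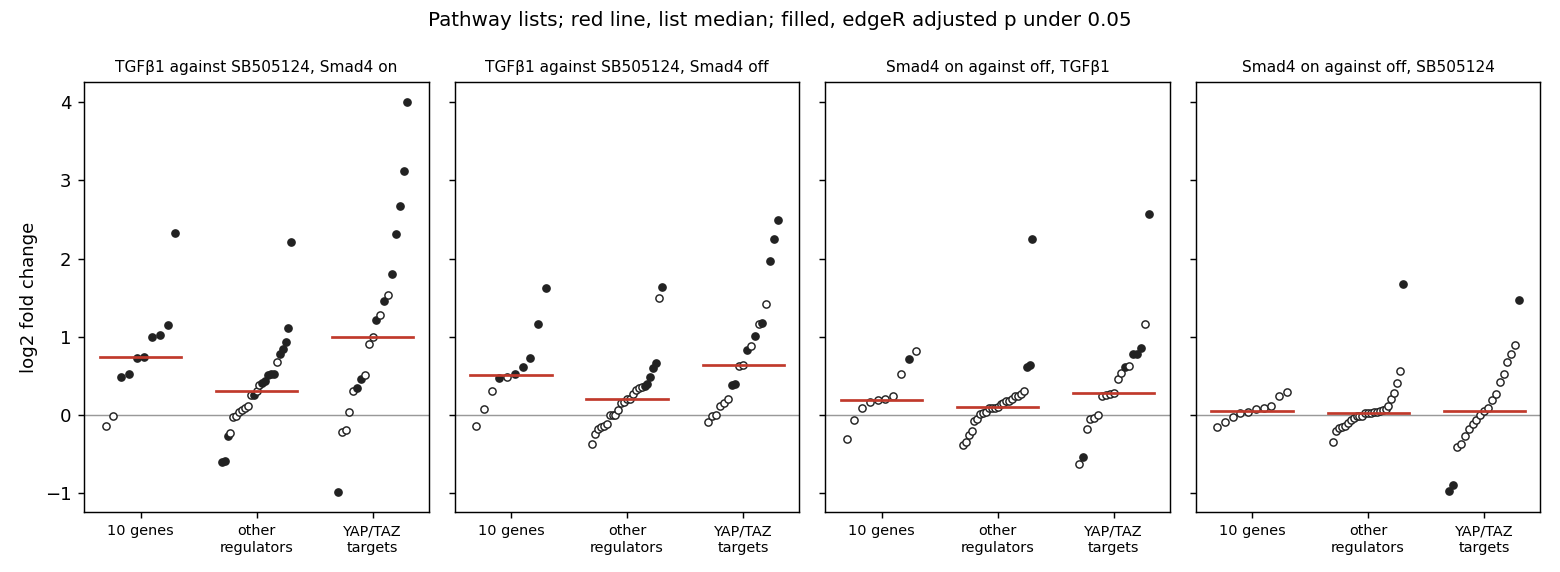
Fitted log2 fold changes (y axis) of the 10 genes, 25 other regulators and 19 targets in 4 comparisons, each point a gene and sorted within its list. *Ptpn14* is in both the regulator and the target list. Filled points have an edgeR adjusted p under 0.05 and red lines are list medians. With TGFβ1 in Smad4-on cells the medians are 0.73, 0.30 and 0.99, and under SB505124 the *Smad4* effect leaves all 3 medians close to 0.

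The gene whose log2 CPM followed each of the 10 most closely over the 8 libraries was sought among 11100 tested genes, as a description, since the libraries share treatment and line. *Amotl2* was closest to *Actb*, which encodes beta-actin (Pearson r = 0.995), *Ajuba* to *Junb*, a subunit of AP-1 (r = 0.99), and *Lats2* to *Timp1*, a metalloproteinase inhibitor (r = 0.997). *Ankrd1* was closest to *Pla2g16* (r = 0.991), *Wwtr1* to *Gdf11* (r = 0.99), *Tead1* to *Slc16a3* (r = 0.993), *Tead2* to *Plekha5* (r = 0.998) and *Tead3* to *Chst2* (r = 0.998). *Tead4* (with *Nfatc3*, r = 0.968) and *Yap1* (with *Ccdc57*, r = 0.919) had the weakest best match.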

How the data were processed

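Per the labels and the study's methods, the authors made stranded poly(A) libraries, sequenced single-end reads of 75 bases, trimmed them with Trimmomatic 0.36, aligned them with STAR 2.5.3a to GRCm38 (mm10) and counted them per gene with featureCounts 1.6.3. The deposited values are raw counts. The settings for strand and multiply aligned reads are not given in the sources used here.

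The counts were tested with edgeR 4.0.16 (TMM, filterByExpr, quasi-likelihood F-test) in R 4.3.3, with all 8 libraries, the 4 groups and the line in the model. Adjusted p are Benjamini-Hochberg values over 14301 genes, and the 2-fold limit follows the study, which used DESeq2. Standard errors were taken from F, as the absolute log2 change over its root. The line is named in every title and pairs the libraries (correlation of line deviations between groups, 0.642 to 0.774 over 6 pairs). Changes per line are differences of log2 CPM with a prior count of 2. The 2 libraries of a group come from different lines. With the line in the model, a gene's own spread is how far these lines differed in their responses to the conditions. There was no replicate within a line. The quasi-likelihood fit also draws on the spread of the other genes tested. Detection floors cover counting error only.

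The 10 genes, the regulator, target and marker lists, and the tests were chosen with earlier results of these data known. Named genes were the 10, *Smad4*, genes of the lists that passed, and the gene closest to each of the 10. Alternatives were DESeq2 1.42.0 with and without the line, DESeq2 size factors, no line, other count filters, no fold limit, fits restricted to 4 libraries, and omission of each library. No stretch of 75 bases of 8 of the 10 genes occurred in transcripts of another gene (GENCODE M21). *Ajuba* shared 0.14% and *Lats2* 40.5%, the latter with the overlapping model. The fits were tested on simulated counts. A further allele of the mouse model is not reported here.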

Additional observations from a re-analysis of the deposited data

Results flagged for a closer look

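None of the 10 genes met a rule for a closer look, but 3 of the 19 target genes did, each because its effect differed between conditions or lines by a test of the difference itself. *Ctgf* responded more to TGFβ1 with Smad4 on than off, with an interaction of 1.75 ± 0.20 on the log2 scale (edgeR adjusted p = 0.0387), 1.96 in B73 and 1.56 in B87. Not every fit that left out a library kept this interaction past the threshold. Under SB505124, *Ctgf* was lower with Smad4 on (85.5 CPM in B73 and 168 CPM in B87) than off (207 and 273 CPM). Under TGFβ1 it was higher with Smad4 on (1511 and 2501 CPM) than off (940 and 1377 CPM). Without the line in the model the interaction did not pass (adjusted p = 1).

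The *Smad4* effect differed between the lines for *Ccdc80*, a secreted matrix protein gene, by 1.98 ± 0.28 (B87 minus B73, adjusted p = 0.0496). It measured 9.13 (Smad4 off) and 2.59 CPM (Smad4 on) in B73 and 10.1 and 15.3 CPM in B87 under SB505124, and 20.5 and 7.50 CPM in B73 and 21.5 and 24.9 CPM in B87 under TGFβ1. For *Nt5e*, which encodes the ectonucleotidase CD73, the difference was -1.67 ± 0.20 (adjusted p = 0.0329). It measured 22.9 (Smad4 off) and 36.4 CPM (Smad4 on) in B73 and 10.8 and 4.70 CPM in B87 under SB505124, and 33.3 and 65.4 CPM in B73 and 17.2 and 11.9 CPM in B87 under TGFβ1. With 1 library per line in each group, differences between lines, tumors and hairpins cannot be told apart.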

How the results depend on the processing

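Without the 2-fold limit, the number of the 10 genes past the threshold became 8 for TGFβ1 with Smad4 on (3 with the limit), 6 with Smad4 off (2 with it), 1 for *Smad4* under TGFβ1 and 4 for the line difference (0 with it for both). Without this limit and without the line, edgeR gave 5, 2 and 0 for the first 3 of these comparisons. With the 2-fold limit and no replicate block, the edgeR TGFβ1 count stayed at 3 with Smad4 on and went to 0 with Smad4 off. In DESeq2 without the line these counts were 3 and 2. The other counts that could be fitted without the line were already 0 with the limit. Leaving out each library gave 0 to 2 with Smad4 off and 2 to 4 with Smad4 on, and 0 to 1 for the line difference in the *Smad4* effect (0 in the full fit). The cause was not tested. Across the named changes that passed or were at least 0.5 in size, 600 alternative values kept direction and side of the threshold, 109 lost significance, 14 gained it and none reversed. Of 759 alternative values for 56 smaller changes of the 10 genes, 63 had the other sign and 6 passed. The smallest count of any of the 10 genes in a library was 282 (*Tead3*).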
